A study of Drosophila melanogaster with 11 samples.

Results

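Male larvae that carried both the P transgene and the act-Gal4 driver were set against male larvae that carried the P transgene alone, so that the groups compared differ by the driver. The 4 arrays of this comparison, 2 titled for P/act-Gal4 males and 2 for P control males, were chosen by their titles from the 11 arrays of a study of HP1 in Drosophila melanogaster. P/act-Gal4 males had the genotype y w; +/+; +/P-act and P control males y w; +/+; +/P, both from crosses in a y w background. P was read as the transgene of line HP1-21, since the design text gives that name where the genotype labels give P. The act-Gal4 control males (y w; +/+; +/act-Gal4, 2 arrays) carry the driver without P and are given beside the results. So are P/act-Gal4 females (1 array), P control females (2 arrays) and, in places, act-Gal4 control females (2 arrays). Each array holds total RNA of whole larvae of instar 3, on the Affymetrix DGv2 chip. Independent populations of larvae are mentioned in the design text, but no label ties an array to one of them, and p-values measure only the spread between these arrays.

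HP1 is a chromodomain protein that binds methylated histone tails and coats the heterochromatin around centromeres and along the small chromosome 4. In the Gal4 system the driver makes a yeast activator, here under an actin promoter and so in nearly all cells, and a transgene with the activator's binding sites is then transcribed. The study's title asks for a sex-specific role of HP1, and P is taken here as a construct that lowers HP1 where Gal4 is made. The labels do not describe the construct, and a driver can alter expression on its own.

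The values are log2 intensities, 1 per probeset and array. Median intensity was 15.62 to 15.84 on the P/act-Gal4 male arrays, against 15.5 to 15.71 on the P control male arrays, and having so few arrays limits the precision. The replicates correlated across probesets at r = 0.998 for P/act-Gal4 males and 0.996 for P control males, against 0.980 to 0.981 between the groups. The log2 gap between 3′ and 5′ probesets, which grows as RNA is shortened, moved with the groups. For eIF4a it was 3.66 to 3.72 in P/act-Gal4 males, against 4.96 to 4.99 in P control males. For actin it was 2.89 to 3.00 in P/act-Gal4 males, against 4.02 to 4.06 in P control males, and for GAPDH it was 3.26 to 3.36 in P/act-Gal4 males, against 4.54 to 4.64 in P control males. The part of this gap in the results below was not tested. Genes used by the testis marked the arrays as male: exu stood at 8.54 and 8.44 in P/act-Gal4 males and 9.88 and 9.93 in P control males, and at 3.01 to 3.77 on all 5 female arrays. The 7 measured Y-linked genes checked nothing, since they lay at the level of the female arrays in both male groups.

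The HP1 transcript itself was slightly lower with the driver. The HP1 gene, on arm 2L, read 7.84 and 7.52 in P/act-Gal4 males, against 8.03 and 8.07 in P control males. Both P/act-Gal4 arrays lay below both P control arrays, and the fall was −0.37 ± 0.109 (SE) on the log2 scale, 1.29-fold (limma, adjusted p = 0.0264). The act-Gal4 control males stood above both groups, at 8.35 and 8.39. The call rests on few arrays, since it was lost without P/act-Gal4 replicate 2 (−0.21, adjusted p = 0.254), without P control replicate 1 (−0.39, adjusted p = 0.0815) and without P control replicate 2 (−0.35, adjusted p = 0.117). The single P/act-Gal4 female array read 8.02, against 7.95 and 8.06 in P control females, and the male change differed from the female one by −0.38 (adjusted p = 0.189). In whole larvae, fewer cells of a type and less RNA per cell cannot be told apart, here or below. The body colour gene y stood at 2.47 and 2.53 in P/act-Gal4 males and at 2.55 and 2.44 in P control males, so that the groups overlapped.

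Of 18769 probesets tested, 4827 (25.7%) passed an adjusted p under 0.05 by limma. Among them 2762 (14.7%) were higher and 2065 (11%) lower in P/act-Gal4 males, and 513 (2.73%) also differed at least 2-fold. Counted as genes, each by its brightest probeset, 2197 of 11982 rose (18.3%) and 1694 fell (14.1%), and these are the shares against which gene groups are read below. At least 2-fold, 251 genes rose (2.09%) and 154 fell (1.29%). The arrays of the groups did not overlap for 62.8% of probesets and 68.0% of genes, so that a lack of overlap alone says little. With 2 arrays against 2, an exact permutation test of a single gene cannot go below p = 0.333, and all calls come from the fit with its spread shared over 11 arrays. The probeset count was 3016 without P/act-Gal4 replicate 2. The count of lower probesets was 1254 without that array, 1253 without P/act-Gal4 replicate 1 and 1347 without P control replicate 1.

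**Figure D1:**
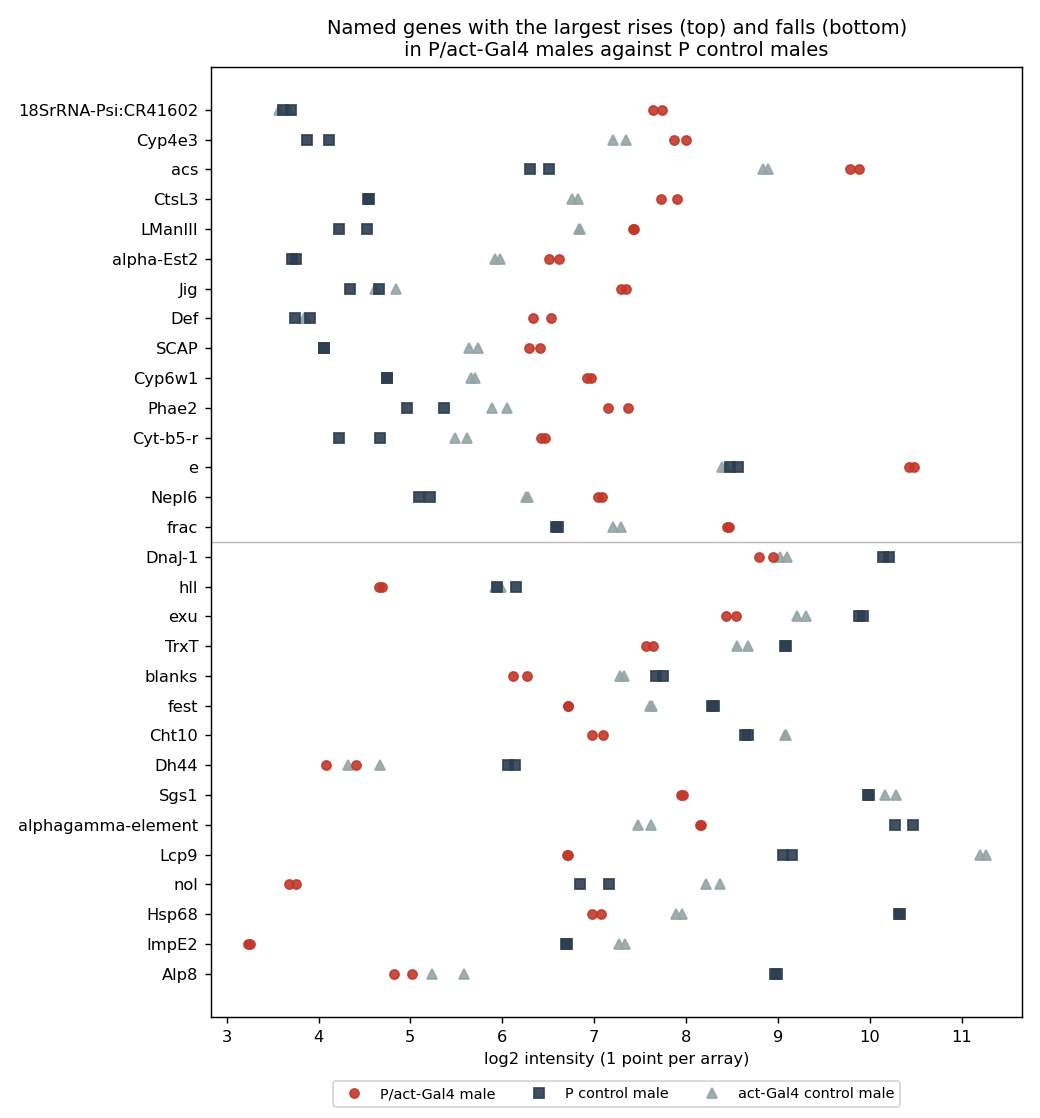
Log2 intensity (x axis) of the named genes with the largest rises (upper block) and falls (lower block) in P/act-Gal4 males, 1 point per array. Circles are P/act-Gal4 males, squares P control males and triangles act-Gal4 control males; circles and squares are apart for every gene, while the triangles lie near the circles for some genes, such as Cyp4e3 and Alp8, and near the squares for others, such as Def and e.

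The largest rise among genes with a name belonged to 18SrRNA-Psi:CR41602, an X-linked pseudogene of 18S ribosomal RNA. It read 7.74 and 7.64 in P/act-Gal4 males, against 3.61 and 3.70 in P control males, a change of 4.04 ± 0.104 (16.4-fold, limma adjusted p = 5.66e-10). Its level in act-Gal4 control males, at 3.57 and 3.68, lay with the P control. Jig showed the same layout, with 7.29 and 7.35 in P/act-Gal4 males, 4.84 and 4.61 in act-Gal4 control males, and 4.66 and 4.34 in P control males (2.82 ± 0.159, adjusted p = 3.29e-07). So did Def, which encodes the antimicrobial peptide Defensin, with 6.33 and 6.53 in P/act-Gal4 males, 3.86 and 3.84 in act-Gal4 control males, and 3.74 and 3.91 in P control males (2.61 ± 0.0998). For these 3 genes both controls sat together and the arrays with both transgenes stood apart.

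For other large rises the driver alone already stood above P. Cyp4e3, a cytochrome P450 gene on 2L, read 8.0 and 7.87 in P/act-Gal4 males, against 4.11 and 3.87 in P control males, a 15.4-fold rise (3.95 ± 0.106, adjusted p = 6.3e-10). In act-Gal4 control males it read 7.20 and 7.35, so that P/act-Gal4 lay 0.66 ± 0.106 above the driver alone. The gene acs read 9.88 and 9.79 in P/act-Gal4 males, against 6.51 and 6.30 in P control males (3.43 ± 0.0969, 10.8-fold), with 8.84 and 8.89 in act-Gal4 control males. CtsL3, of the cathepsin L family of proteases, rose 9.67-fold, LManIII, a lysosomal mannosidase gene, 8.29-fold, and the esterase gene alpha-Est2 7.12-fold. Their means in act-Gal4 control males were 6.79, 6.84 and 5.95, against 4.54, 4.37 and 3.74 in P control males. The remaining rises among the 15 named were 4.90-fold for SCAP, which escorts the lipid regulator SREBP, 4.62-fold for Cyp6w1, 4.28-fold for the serine protease gene Phae2, 4.01-fold for Cyt-b5-r, 3.77-fold for Nepl6, a neprilysin-like peptidase gene, and 3.64-fold for frac. Also among them was e, the ebony enzyme of cuticle tanning, at 10.48 and 10.43 in P/act-Gal4 males, against 8.57 and 8.48 in P control males (1.93 ± 0.093, 3.81-fold). Its act-Gal4 control males lay with P, at 8.39 and 8.44. Another 130 genes that rose at least 2-fold have only a CG or CR number for a name.

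The deepest fall belonged to Alp8, an alkaline phosphatase gene on 2R. It read 4.82 and 5.02 in P/act-Gal4 males, against 8.99 and 8.97 in P control males (−4.06 ± 0.119, 16.7-fold, limma adjusted p = 1.18e-09). Driver-only males were low as well, at 5.58 and 5.24. By contrast ImpE2, an ecdysone-inducible gene on 3L, was low in P/act-Gal4 males alone, at 3.25 and 3.23, against 6.70 and 6.69 in P control males (−3.46 ± 0.091) and 7.34 and 7.27 in act-Gal4 control males. The gene nol read 3.75 and 3.68 in P/act-Gal4 males, against 6.85 and 7.16 in P control males (−3.29 ± 0.113, 9.78-fold). Lcp9, a larval cuticle protein gene, read 6.70 and 6.71 in P/act-Gal4 males, against 9.15 and 9.05 in P control males (−2.40 ± 0.0858), while act-Gal4 control males stood above both, at 11.20 and 11.26. Sgs1, for a salivary glue protein, fell 4.07-fold, Dh44, for a diuretic neuropeptide, 3.62-fold, and the chitinase gene Cht10 3.06-fold. Dh44 averaged 4.24 in P/act-Gal4 males, 4.49 in act-Gal4 control males and 6.10 in P control males. The gene hll fell 2.58-fold. Levels such as 3.2 to 4.2 are low on these arrays, no detection calls were used, and folds against them may be understated.

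Of 6 measured genes of the heat shock response 5 fell and none rose (14.1% of all genes fell). Their median log2 change was −1.045, beside −0.007 over all genes. Hsp68, an inducible chaperone of the Hsp70 family, read 7.07 and 6.98 in P/act-Gal4 males, against 10.33 and 10.32 in P control males (−3.30 ± 0.0873, 9.83-fold, adjusted p = 5.66e-10). DnaJ-1, its co-chaperone of the Hsp40 family, read 8.79 and 8.95 in P/act-Gal4 males, against 10.14 and 10.21 in P control males (−1.30 ± 0.0919). The small heat shock gene Hsp26 read 8.98 and 8.96 in P/act-Gal4 males, against a mean of 10.11 ± 0.164 (SD, n = 2) in P control males (−1.14 ± 0.0968). All of these P/act-Gal4 arrays lay below the P control arrays. The fall of Hsp27, another small heat shock gene, was −0.95 ± 0.0888, and that of stv, a co-chaperone of the BAG family, −0.65 ± 0.0925. Hsf, the transcription factor that switches on these genes, read 7.14 and 7.19 in P/act-Gal4 males and 7.13 and 7.16 in P control males (0.03, adjusted p = 0.888).

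The act-Gal4 control males were not high for these genes either. Hsp68 stood there at 7.96 and 7.89. For stv the P/act-Gal4 males read 8.84 and 9.0 and the act-Gal4 control males 8.06 and 8.0, so that the driver alone was lowest. A noncoding transcript of the Hsp70 gene cluster, lncRNA:alphagamma-element:CR32865, read 8.16 and 8.15 in P/act-Gal4 males, against 10.27 and 10.47 in P control males (−2.22 ± 0.102), and 7.48 and 7.62 in act-Gal4 control males. P control males thus held the highest values of the 3 male groups for Hsp68, DnaJ-1, Hsp26, Hsp27, stv and this transcript. Of 23 other chaperone genes measured, 11 fell and 1 rose, with a median of −0.261. Some of these, such as Hsc70-2, Hsp60B and Hsp60C, stood far lower on the female arrays, and the rise was that of Hsc70-1, another such gene (0.43). The genes that fell included the mitochondrial chaperonin gene Hsp60A, at 8.20 and 8.30 in P/act-Gal4 males, against 9.14 and 9.09 in P control males (−0.86 ± 0.0865), and CG11267 (−0.88 ± 0.0974). For Hsp60A the act-Gal4 control males stood highest, at 9.28 and 9.33, unlike the layout of Hsp68. Only 7 of the 23 fell without P control replicate 1 or without P/act-Gal4 replicate 1, and 6 without P/act-Gal4 replicate 2. The rise of Hsc70-1 passed in none of the 4 fits with 1 of these arrays left out.

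**Figure D2:**
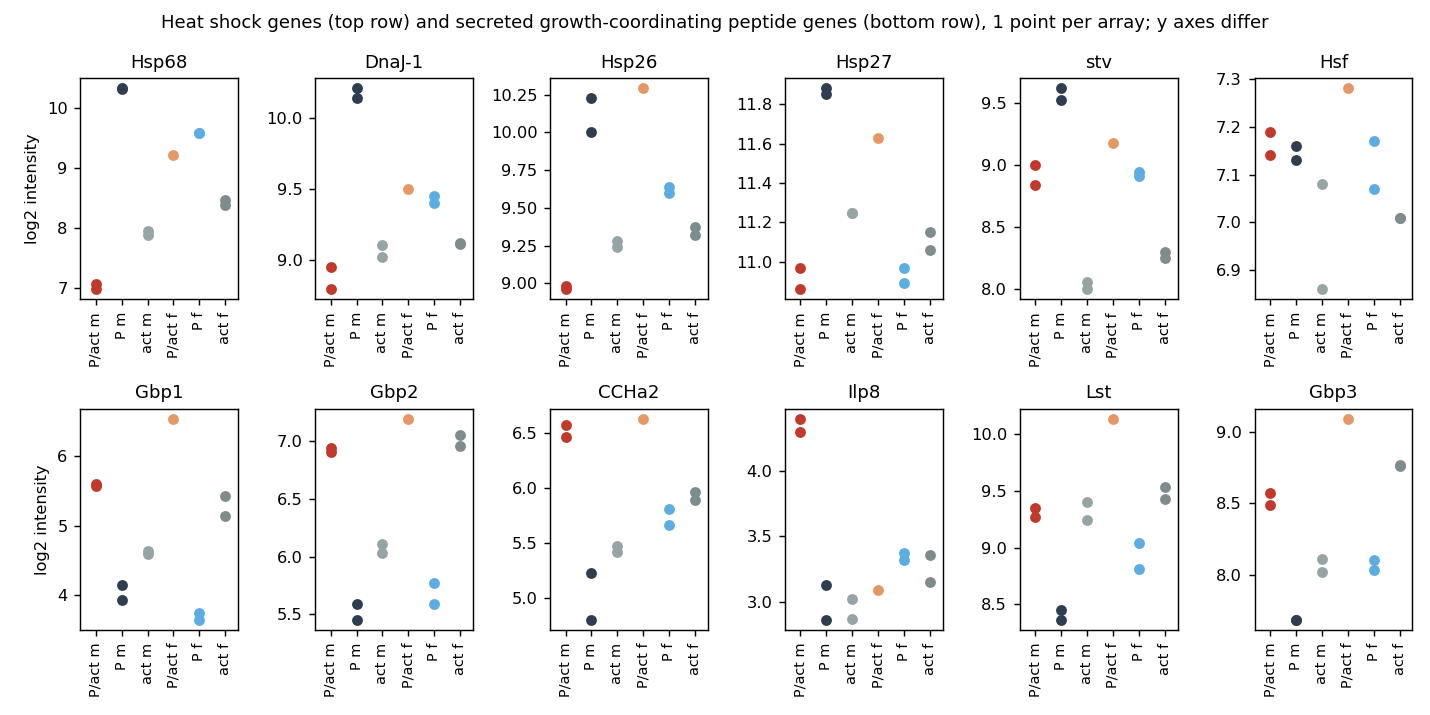
Log2 intensity (y axes, which differ between panels) of 6 heat shock genes (top row) and 6 genes of secreted growth-coordinating peptides (bottom row), 1 point per array, by group (m male, f female). In the top row P control males are highest among the male groups except for Hsf; in the bottom row P/act-Gal4 males are above P control males in every panel, and Lst is as high in act-Gal4 control males.

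Of 17 measured genes of secreted peptides that coordinate growth with feeding and tissue state, 10 rose and none fell (18.3% and 14.1% of all genes), with a median log2 change of 0.553. Gbp1, a growth-blocking peptide of the fat body, read 5.6 and 5.57 in P/act-Gal4 males, against 3.93 and 4.14 in P control males (1.55 ± 0.114, 2.93-fold, limma adjusted p = 2.76e-06). Its relative Gbp2 rose 2.65-fold. CCHa2, a nutrient-dependent peptide that promotes insulin production, read 6.46 and 6.57 in P/act-Gal4 males, against 4.80 and 5.23 in P control males (1.5 ± 0.13). The act-Gal4 control males lay between the groups for Gbp1, Gbp2 and CCHa2, at means of 4.61, 6.07 and 5.45. Ilp8, a relaxin-like peptide that damaged imaginal discs release and that delays metamorphosis, read 4.39 and 4.29 in P/act-Gal4 males, against 3.13 and 2.86 in P control males (1.34 ± 0.116) and 2.87 and 3.02 in act-Gal4 control males. Of the 17, 9 had means at or under 5 in both groups, Ilp8 among them, and 3 of these 9 passed. Lst, for the peptide limostatin, rose by 0.91 ± 0.106, with 9.27 and 9.35 in P/act-Gal4 males beside 9.24 and 9.40 in act-Gal4 control males, so that these groups overlapped.

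Of 35 measured genes of mitosis and chromosome segregation, 22 fell (62.9%, beside 14.1% of all genes) and none rose, with a median log2 change of −0.507. Incenp, a subunit of the chromosomal passenger complex, read 5.0 and 4.96 in P/act-Gal4 males, against 5.89 and 6.12 in P control males (−1.03 ± 0.128, adjusted p = 0.000138). The gene tum, for a GTPase-activating protein of cytokinesis, read 4.43 and 4.37 in P/act-Gal4 males, against 5.41 on both P control arrays (−1.01 ± 0.0988). Falls of fzy, which activates the complex that starts anaphase, the cyclin gene CycB3 and the spindle kinesin gene Klp61F were −0.94, −0.91 and −0.75. Driver-only males lay with P for all 5 of these genes, between 5.17 and 6.71. Some members stood higher in males: CycB3 and fzy averaged 6.59 and 5.81 in P control males, but 4.69 and 4.26 in P control females. Others did not, such as tum, with means of 5.41 and 5.39. Of 39 DNA replication genes 10 fell and 1 rose, with a median of −0.087. Mcm6, of the replicative helicase, read 5.36 and 5.41 in P/act-Gal4 males, against 6.12 and 6.26 in P control males (−0.81 ± 0.107), and the licensing factor gene dup fell by 0.66. Of the 39, 27 had means at or under 5 in both groups, dup among them, and 4 of these 27 passed. Without P control replicate 1, or without P/act-Gal4 replicate 1, 5 replication genes fell.

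Genes that pattern the imaginal discs, the larval precursors of adult organs, fell in 14 of 34 cases and rose in 1, with a median of −0.232. Of the 34, 20 had means at or under 5 in both groups, and 4 of these 20 passed. The summed log2 level of the 34 genes was 159.4 to 161.0 in P/act-Gal4 males, against 170.3 to 170.6 in P control males. The gene en (engrailed), a selector of posterior compartments, read 5.24 and 5.16 in P/act-Gal4 males, against 6.39 and 6.50 in P control males (−1.24 ± 0.0909), and dac (dachshund) fell by 1.28. Both P/act-Gal4 arrays were low and the groups did not overlap for either gene. Counts without 1 array were 8 falls without P control replicate 2 or P/act-Gal4 replicate 2 and 9 without P/act-Gal4 replicate 1, and the 1 rise was lost without any of the 4.

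Of 64 measured testis-biased genes 23 fell and 4 rose, with a median of −0.219. The rises were none without P/act-Gal4 replicate 1 and 1 without any of the other 3 arrays. The summed log2 level of these markers was 375.9 to 380.4 in P/act-Gal4 males, against 395.2 to 396.7 in P control males and 380.0 to 381.0 in act-Gal4 control males. The testis-biased members include some shared with other lists, such as ATPsynbetaL of the respiration list. Of the 44 members at least 1 log2 unit higher in act-Gal4 control males than in act-Gal4 control females, 17 fell and 2 rose. Largest was vis, a homeobox gene that acts in spermatocytes, at 4.29 and 4.27 in P/act-Gal4 males, against 5.98 and 5.88 in P control males (−1.65 ± 0.164, 3.14-fold). The falls of exu, an RNA localisation gene of the germ line, and S-Lap5 were −1.41 ± 0.115 and −0.90 ± 0.139. Named falls outside this list belong to genes of the male germ line too: TrxT, a testis thioredoxin, read 7.56 and 7.64 in P/act-Gal4 males, against 9.09 and 9.08 in P control males (−1.48 ± 0.106). So did fest (−1.58 ± 0.1) and blanks (−1.51 ± 0.142), a double-stranded RNA-binding protein of spermatocytes. Act-Gal4 control males lay between the groups for TrxT, fest and blanks, at means of 8.61, 7.62 and 7.30.

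Several genes of heterochromatin proteins were lower, and a few were higher. Of 36 measured, 11 fell and 4 rose, with a median of −0.196, and 3 of the falls (Incenp, borr and aurB) were counted in the mitosis list too. Besides the HP1 gene and Incenp, HP4, a partner of HP1, read 6.05 and 6.34 in P/act-Gal4 males, against 7.21 and 7.11 in P control males (−0.96 ± 0.123). HP6, a fast-evolving member of the HP1 family, fell by 0.58 and lies far lower in females, at 3.44 to 3.84. Among the rises, the histone kinase gene JIL-1, which limits the spread of heterochromatin, read 5.37 and 5.57 in P/act-Gal4 males, against 4.37 and 4.28 in P control males (1.14 ± 0.17, 2.21-fold). Su(var)2-HP2, another HP1 partner, rose by 0.59 ± 0.0932. The falls numbered 6 without P control replicate 1 and 7 without P/act-Gal4 replicate 1 or 2, and the rises 2 without P control replicate 1 or P/act-Gal4 replicate 2. In the dosage compensation list JIL-1 and msl-3 rose and 6 other members did not pass, and a further probeset of msl-3 passed in the opposite direction. There 1 gene rose without P control replicate 1 or 2 or without P/act-Gal4 replicate 2. Of 27 genes of RNA interference and small RNA pathways 6 rose and 6 fell (22.2% each, beside 18.3% and 14.1% of all genes). Among them were drosha at 0.72 ± 0.152 and mael at −0.72 ± 0.141. Means at or under 5 in both groups were found for 20 of the 27, mael included, and 7 of these 20 passed. The falls there were 2 without P control replicate 1 or P/act-Gal4 replicate 1.

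Genes of chromosome 4, which HP1 coats along its length, were more often higher than lower. Of its 65 measured genes 30 rose and 1 fell, which is 46.2% and 1.54%, beside 18.3% and 14.1% of all genes. The median change was 0.222, against −0.016 to −0.002 on X, 2L, 2R, 3L and 3R. Summed log2 levels over the 65 genes were 359.2 and 364.6 in P/act-Gal4 males, against 343.1 and 344.4 in P control males, with 347.1 and 348.5 in act-Gal4 control males. The median was 0.190 for P/act-Gal4 minus act-Gal4 control males and −0.012 for act-Gal4 control minus P control males, comparisons that share arrays with the main one. In females the P/act-Gal4 array gave a median of 0.125 against P control females. Of the 65 genes, 9 had a male change above the female one and none below it (8.88% and 7.74% of all genes). The largest change on the chromosome was that of Zip102B, a zinc transporter gene, at 5.77 and 6.14 in P/act-Gal4 males, against 3.88 and 3.83 in P control males (2.09 ± 0.152). Its act-Gal4 control males read 5.21 and 5.17, so that the driver alone stood 1.33 ± 0.152 above P. Pur-alpha, chosen like Zip102B after its values were seen, rose by 0.78 ± 0.183 (adjusted p = 0.00856). Act-Gal4 control males lay between the groups for Pur-alpha, at 5.35 and 5.47. Against them P/act-Gal4 males differed by 0.40 ± 0.183 (limma adjusted p = 0.142). The rises numbered 19 without P control replicate 1 and 16 without P/act-Gal4 replicate 2, and the median lay between 0.122 and 0.358 over all settings tried.

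**Figure D3:**
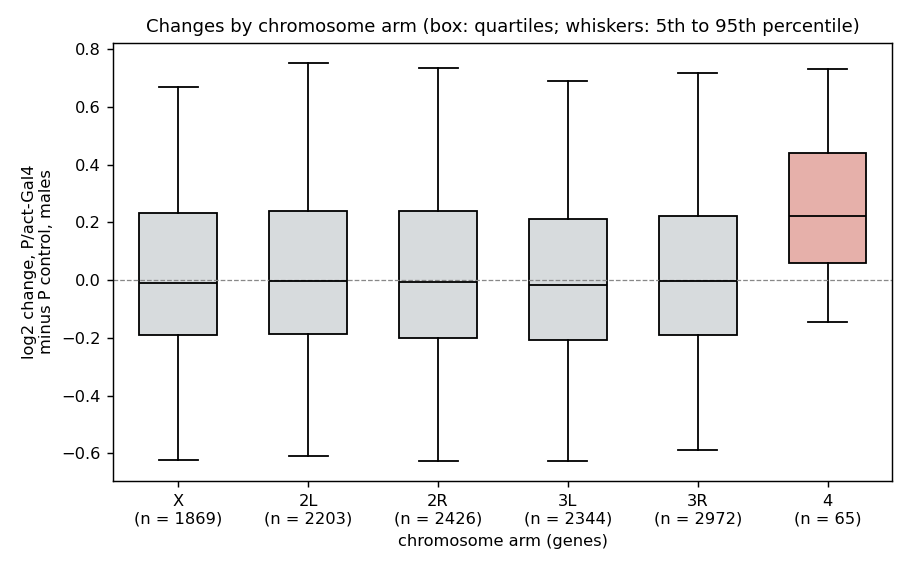
Log2 change in P/act-Gal4 males against P control males (y axis) for the genes of each chromosome arm (x axis, with the number of genes), as boxes of the quartiles with whiskers at the 5th and 95th percentiles. The box of chromosome 4 lies above 0, with a median of 0.222, while the medians of the other arms are at −0.016 to −0.002.

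Of 35 genes of haemocytes, the blood cells, and melanization 22 rose, none fell and 13 did not pass, with a median of 0.437, and 6 of the 9 Nimrod family members were among the rises. The summed log2 level of the 35 markers was 203.6 to 204.0 in P/act-Gal4 males, against 184.5 to 186.5 in P control males, and 199.2 to 199.5 in act-Gal4 control males. NimC1, a phagocytosis receptor, read 5.54 and 5.5 in P/act-Gal4 males, against 4.10 and 3.79 in P control males (1.57 ± 0.109, 2.98-fold, limma adjusted p = 1.7e-06), with 3.96 and 4.08 in act-Gal4 control males. PPO1, a prophenoloxidase of crystal cells, read 5.23 and 5.16 in P/act-Gal4 males, against 3.83 and 3.56 in P control males (1.5 ± 0.111), and 6.67 and 6.78 in act-Gal4 control males. PPO2 rose by 1.42 ± 0.0837 and was likewise highest with the driver alone, with 7.72 and 7.74 in P/act-Gal4 males and 8.81 and 8.82 in act-Gal4 control males. Glt rose by 1.31 and the scavenger receptor gene Sr-CI by 1.18. In settings that kept all 35 genes, 19 to 25 of them rose and none fell. The antimicrobial list did not move one way: of 23 genes 5 rose (21.7%) and 7 fell (30.4%), with a median of −0.069. Over all genes 18.3% rose and 14.1% fell, so that the antimicrobial rises were near that share. Def and the lysozyme gene LysX rose 6.09-fold and 3.16-fold, while Drs, for the antifungal peptide Drosomycin, read 6.69 and 6.67 in P/act-Gal4 males, against 7.47 and 7.54 in P control males (−0.83 ± 0.101).

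Genes of chitin, the polymer of cuticle and gut lining, rose more often than they fell, with 14 of 28 up, 2 down and a median of 0.407. Their summed log2 level was 198.0 to 198.3 in P/act-Gal4 males, against 189.9 to 190.6 in P control males. Both act-Gal4 control male arrays stood at 198.6. The median was 0.135 for P/act-Gal4 minus act-Gal4 control males and 0.384 for act-Gal4 control minus P control males. The imaginal disc growth factors, secreted relatives of chitinases, gave 4 rises among 6 genes, and Idgf6 read 10.30 and 10.28 in P/act-Gal4 males, against 9.06 and 9.09 in P control males (1.21 ± 0.084). The chitinase gene Cht5 rose by 1.35 ± 0.13 and the chitin deacetylase gene Cda5 by 0.82 ± 0.112. Cht6 rose by 0.88, though 1 of its other probesets went the opposite way, and Cht10, as given above, fell. Larval cuticle proteins moved in the other direction, with 18 of 54 lower and 3 higher (median −0.103). Of these, 40 had means at or under 5 in both groups, a level at which a change is hard to see. Lcp9 and Cpr92F fell by 2.40 and 1.57, and in both P/act-Gal4 males were lowest and act-Gal4 control males highest. The falls were 11 without P/act-Gal4 replicate 1 or 2.

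The ecdysone list holds genes that make or control this moulting hormone and genes that respond to it, with a few juvenile hormone receptors. Of 32 measured, 9 rose (28.1%) and 4 fell (12.5%), with a median of 0.039. Over all genes 18.3% rose and 14.1% fell, so that the falls were near that share. They numbered 2 without P control replicate 1 or P/act-Gal4 replicate 1. ImpE1 shared the fall of ImpE2, at 5.59 and 5.84 in P/act-Gal4 males, against 6.89 and 6.95 in P control males (−1.21 ± 0.128). The salivary glue and Eig71E genes split as well, with 7 of 22 higher (31.8%) and 6 lower (27.3%). Eig71Ed read 5.39 and 5.43 in P/act-Gal4 males, against 3.48 and 3.30 in P control males (2.02 ± 0.124), with 3.80 and 3.66 in act-Gal4 control males, while Sgs1 fell. Sgs1 read 7.95 and 7.97 in P/act-Gal4 males, against 9.98 and 9.99 in P control males.

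Fat body genes rose in 11 of 26 cases (42.3%) and fell in 3 (11.5%, near the 14.1% over all genes), with a median of 0.200. The summed log2 level of the 26 genes was 204.0 to 204.6 in P/act-Gal4 males, against 193.9 to 194.2 in P control males. Act-Gal4 control males stood at 201.3 to 202.3. The median was −0.024 for P/act-Gal4 minus act-Gal4 control males and 0.217 for act-Gal4 control minus P control males. NLaz, a lipocalin, read 6.22 on both P/act-Gal4 arrays, against 4.67 and 4.43 in P control males (1.67 ± 0.187), and the iron carrier gene Tsf1 rose by 1.48 ± 0.101, with 1 of its other probesets opposite. Apoltp, a lipid transfer apolipoprotein, rose by 1.21 ± 0.0965. Among enzymes that modify foreign compounds, 24 of 81 cytochrome P450 genes rose (29.6%) and 10 fell (12.3%). Of 69 glutathione S-transferase and UGT genes 24 rose (34.8%) and 3 fell (4.35%), beside 18.3% and 14.1% of all genes. The P450 falls were thus near the share over all genes. For the glutathione S-transferase and UGT list the median was −0.089 for P/act-Gal4 minus act-Gal4 control males. It was 0.175 for act-Gal4 control minus P control males. No UGT gene fell, and 12 of 35 rose, with Ugt302K1 at 1.36 ± 0.105. Of the 35, 25 had means at or under 5 in both groups, Ugt302K1 among them, and 4 of these 25 passed. GstD3 read 6.98 and 6.77 in P/act-Gal4 males, against 5.66 and 5.57 in P control males (1.26 ± 0.0963), and stood at 7.10 and 7.11 in act-Gal4 control males. Digestive genes of the gut went both ways, with 20 of 50 higher and 14 lower.

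Mitochondrial respiration genes fell in 40 of 76 cases and rose in 4, with a median of −0.324. Split by name, 34 of 58 genes without a testis-type suffix fell, and 6 of 18 paralogs named with an L, among them ATPsynbetaL (−1.13 ± 0.221) and ATPsynepsilonL (−0.89 ± 0.135). The median level of the 58 was 8.26 to 8.30 in P/act-Gal4 males, against 8.41 to 8.51 in P control males and 8.89 to 8.90 in act-Gal4 control males. This count depends on the arrays used: 26 fell without P control replicate 1, 21 without P/act-Gal4 replicate 1 and 24 without P/act-Gal4 replicate 2. Glycolysis and sugar genes were split, with 6 of 21 higher and 6 lower (28.6% each, beside 18.3% and 14.1% of all genes). Among them were Tps1, for trehalose synthesis, at 0.70 and Pglym78 at −0.77. There, 3 fell without P/act-Gal4 replicate 1. Of 24 muscle genes 5 rose and 5 fell (20.8% each), so that the rises were near the share over all genes. Tropomyosin Tm2 averaged 9.96 ± 0.061 in P/act-Gal4 males, against 10.85 ± 0.028 in P control males (SD, n = 2 each), a change of −0.89 ± 0.0847 (SE). The rises there were 2 without P/act-Gal4 replicate 2. Nervous system genes rose in 9 of 27 cases and fell in 1, the neuropeptide gene Nplp4 (−1.28 ± 0.0847).

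Among 41 cytosolic ribosomal protein genes 13 rose (31.7%) and 5 fell (12.2%, near the 14.1% over all genes), with a median of 0.12. The members named for their size are paralogs with low levels on the female arrays, and RpS19b fell by 0.90 and RpL22-like by 0.82. The rises numbered 5 without P control replicate 2, 8 without P/act-Gal4 replicate 1, 6 without P/act-Gal4 replicate 2 and 5 after quantile normalization was applied once more, where the median was −0.028. The falls numbered 3 without P control replicate 2 or P/act-Gal4 replicate 1. No direction is given for this group.

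**Figure D4:**
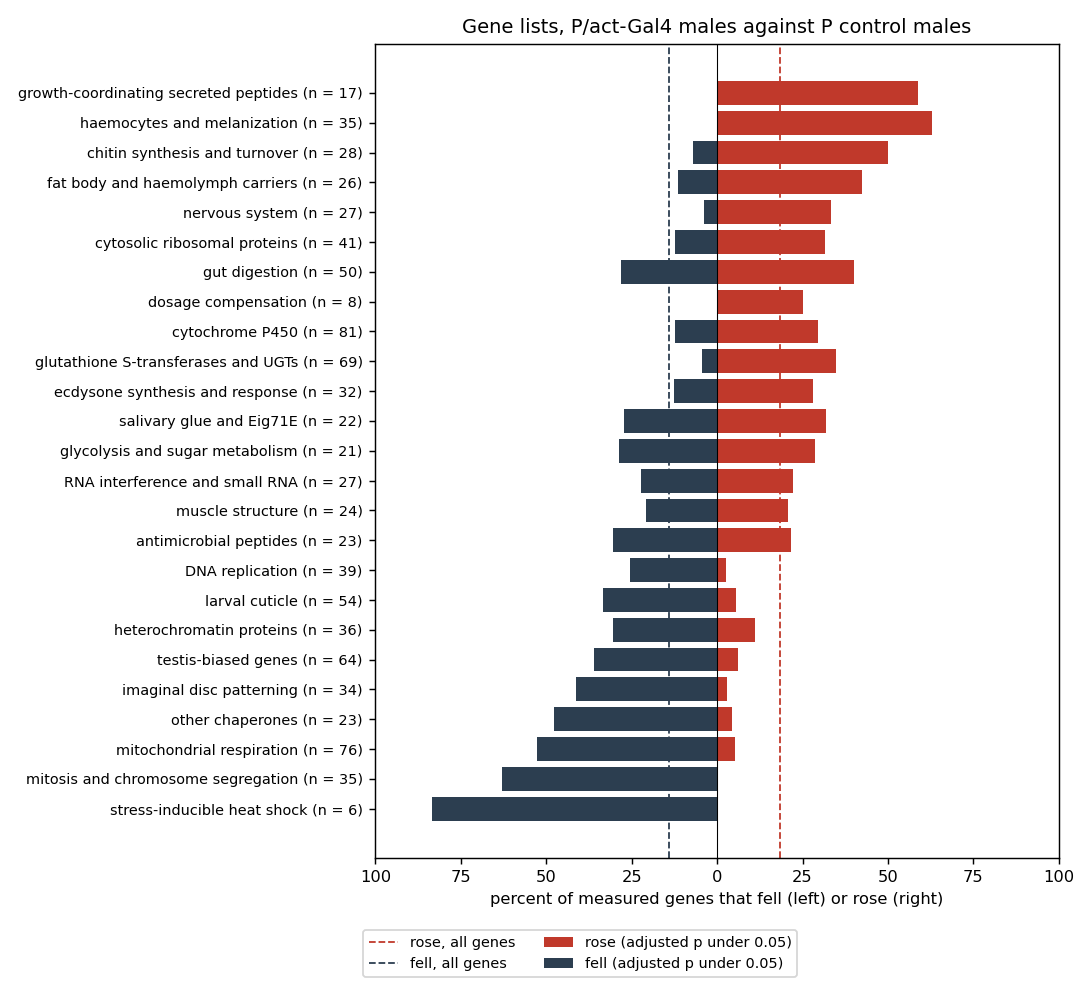
Share of each list's measured genes that fell (bars to the left) or rose (bars to the right) in P/act-Gal4 males against P control males, in percent, with the number of genes in brackets. Dashed lines mark the shares over all 11982 genes, 14.1% lower and 18.3% higher; heat shock, mitosis and respiration genes reach farthest left, and blood cell and growth peptide genes farthest right.

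Whether females responded alike was asked by a test of the male change against the female one, which shares no arrays with it but rests on 1 P/act-Gal4 female array. Of 18769 probesets 2432 (13%) differed, with the male change above the female one in 1329 (7.08%) and below it in 1103 (5.88%). Of the 30 genes named for their size, 27 passed this test, which their choice by the size of the male change favours. The female change was above 0 for 14 of the 15 rises and below 0 for 7 of the 15 falls. All 5 heat shock genes that fell in males had a male change below the female one. Hsp68 read 9.22 on the P/act-Gal4 female array and 9.59 on both P control female arrays, a change of −0.37. Hsp26 read 10.29 on the P/act-Gal4 female array, against 9.64 and 9.60 in P control females, so that the changes in the sexes had opposite signs.

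The gene with the largest difference among those named is Drsl5, a Drosomycin-like peptide gene. Its change was −0.31 in males (adjusted p = 0.114) and 5.06 in females, where the P/act-Gal4 array read 10.08, against 5.25 and 4.78 in P control females. Both act-Gal4 control female arrays read 8.84, so the driver alone already stood above P control females. ImpE2 read 7.12 on the P/act-Gal4 female array, against 5.66 and 5.84 in P control females, so its change was above 0 in females and below it in males. For ImpE2 the act-Gal4 control females, at 7.01 and 7.05, lay near the P/act-Gal4 female array. For e the male and female P/act-Gal4 arrays were alike, at 10.48, 10.43 and 10.39, and the P control females were the low ones, at 3.90 and 3.78. LManIII, Phae2, Cyp6w1, Apoltp and Nplp2 had male changes that lay above the female ones by 2.68, 2.60, 2.06, 2.01 and 2.49. For Nplp2, a secreted neuropeptide-like precursor gene, the change was 1.0 in males and −1.49 in females.

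By group, the male change lay below the female one for 12 of 35 mitosis genes, 21 of 64 testis-biased genes and 9 of 34 disc genes, and above it for 1, 1 and 0 of them (over all genes, 7.74% below and 8.88% above). It lay above for 28 of 76 respiration genes, 10 of 24 muscle genes and 9 of 21 glycolysis genes, and below for 1, 0 and 0. The P/act-Gal4 female array had the respiration genes at a median change of −0.651 against P control females, so the median was below 0 in both sexes and nearer 0 in males. Blood cell genes gave 11 of 35 with a larger male change and 1 with a smaller one. The gap between 3′ and 5′ probesets on the P/act-Gal4 female array was 3.47 for eIF4a and 2.90 for GAPDH, against 3.90 to 4.01 and 3.63 to 3.66 in P control females. For actin it was 2.95 on that array, within the 2.93 to 3.00 of P control females.

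**Figure D5:**
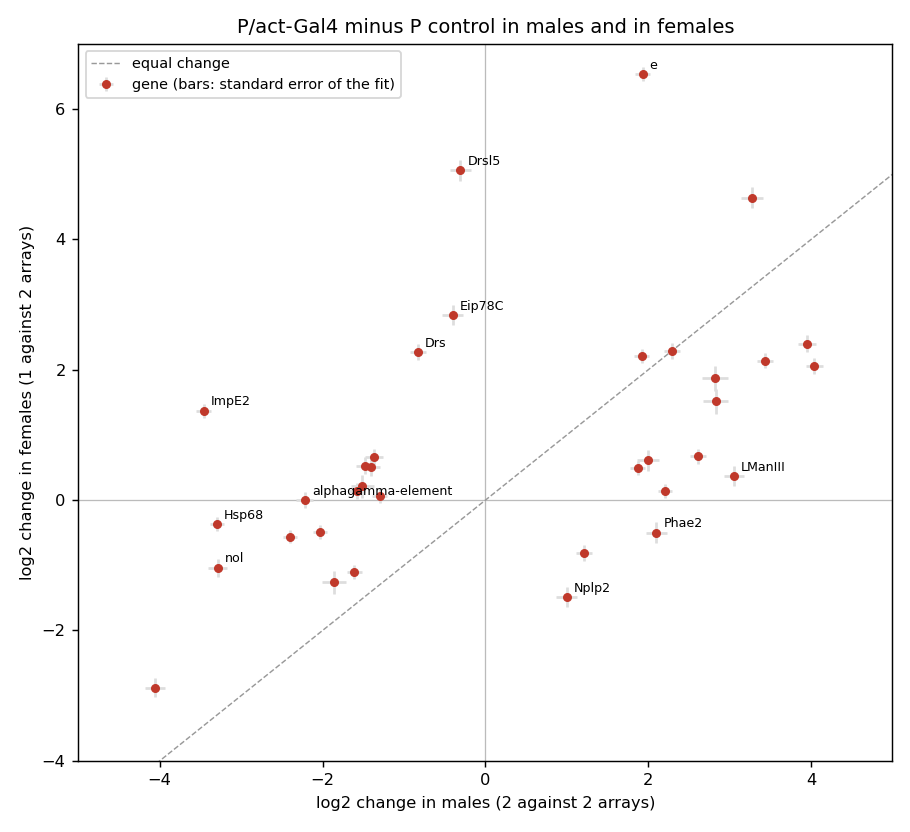
Log2 change of P/act-Gal4 against P control in males (x axis, 2 against 2 arrays) and in females (y axis, 1 against 2 arrays) for the genes named for their size or for their difference between the sexes, with standard errors of the fit as bars and a dashed line of equal change. The points for e, Drsl5, Eip78C, Drs and ImpE2 lie above the line, and LManIII, Phae2 and Nplp2 below it.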

How the data were processed

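Total RNA of whole larvae was measured on 11 Affymetrix arrays. The deposited values are intensities on a linear scale, made by the authors with RMA per the submitters' processing notes; its version and options are not given in the sources used here. Log2 was taken with no pseudocount and no filter. Of 18952 probesets, 183 controls were left out. The platform table names 1 gene for 13647 of the 18769 tested, several for 402 and none for 4720. A gene stands for its brightest probeset, by the mean of the 11 arrays. No detection calls were used, and 48.6% of genes had log2 means at or under 5 in both groups. Groups follow the titles, since some strain and description labels contradict them.

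In R 4.3.3, limma 3.58.1 (lmFit, eBayes, 5 residual and 6.29 prior degrees of freedom) fitted the means of the 6 groups over the whole series, which gives the single P/act-Gal4 female array the spread of the others. P-values were adjusted by Benjamini-Hochberg over all probesets. "Rose" and "fell" mean an adjusted p under 0.05, and errors are standard errors of the fit. The method was tested on simulated data with independent noise, in which 50 probesets were changed at each size. It recovered 2% of log2 changes of 0.25, 28% of 0.5, 86% of 1 and 100% of 2, with 2 false calls. The simulation held neither the gap between 3′ and 5′ probesets nor so large a share of changes, so it does not bear on these. Tables were handled with pandas 2.3.3 and figures drawn with matplotlib 3.10.9.

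Named genes are the 15 largest rises and 15 largest falls with a name, a mean of at least 6 in the higher group and no overlap of arrays, up to 5 passing members of each of 7 lists and 2 of each other list, and the 5 largest differences between the sexes each way. Members and lists were chosen with earlier results of these data known. The P450 list was cleared of 2 cyclophilin genes, matched by name alone, after its values were seen. Lists are described by counts and medians, without a test of the list. Alternatives were array weights, the trend and robust options of limma, fewer arrays in the fit, bright probesets, 1 probeset per gene, other scalings, a pseudocount of 16, other thresholds and leaving out each array.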

Additional observations from a re-analysis of the deposited data

Results flagged for a closer look

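The 61 results below are those among named genes in which the change of P/act-Gal4 against P control in males differed from that in females by limma's test of the difference (adjusted p under 0.05). The values are the male minus the female log2 change, and the female side rests on 1 P/act-Gal4 array. The genes were named for the size of the male change or of this difference, a choice that favours passing the test.

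The male change lay above the female one by 2.68 for LManIII, 2.60 for Phae2, 2.49 for Nplp2, 2.06 for Cyp6w1 and 2.01 for Apoltp. It did so by 1.98 for 18SrRNA-Psi:CR41602, 1.93 for Def, 1.60 for Ilp8, 1.54 for Cyp4e3, 1.40 for Cyt-b5-r, 1.37 for frac, 1.31 for alpha-Est2 and 1.29 for acs. Most of these rose in males and had a smaller change above 0 in females; the female change of Ilp8, Phae2, Nplp2 and Apoltp was below 0. Blood cell genes gave 1.36 for PPO2, 1.14 for Sr-CI, 1.04 for PPO1, 0.84 for NimC1 and 0.56 for Glt. Smaller gaps were 1.18 for Tsf1, 0.95 for Jig, 0.84 for LysX and for Cht6, 0.76 for GstD3, 0.72 for Idgf6 and 0.50 for Tm2, which was lower in both sexes.

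The male change lay below the female one by −5.37 for Drsl5, −4.83 for ImpE2, −4.62 for e, −3.24 for Eip78C, −3.10 for Drs and −2.29 for ImpE1. Of these e was higher in both sexes, and the change of the others was below 0 in males and above 0 in females. For all of these genes act-Gal4 control females also stood above P control females. Heat shock genes gave −2.93 for Hsp68, −1.81 for Hsp26, −1.65 for Hsp27, −1.38 for DnaJ-1 and −0.90 for stv, and lncRNA:alphagamma-element:CR32865 gave −2.22. Genes with far higher levels on male than on female arrays gave −2.01 for TrxT, −1.92 for exu, −1.72 for fest and for blanks, −1.66 for vis, −0.86 for RpL22-like and −0.78 for S-Lap5. In cell division the values were −0.99 for CycB3, −0.85 for Incenp, −0.66 for Klp61F and −0.60 for tum, and HP4 gave −0.85. Disc genes gave −1.61 for dac and −1.37 for en. For nol, hll, Lcp9, Sgs1, Alp8, mael and Cht10 the values were −2.25, −2.03, −1.84, −1.54, −1.18, −1.0 and −0.51. A further 3 genes were higher in both sexes, by more in females: NLaz (−1.43), CtsL3 (−1.37) and Gbp1 (−1.28).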

How the results depend on the processing

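Every alternative planned was run, except that leaving out the lone P/act-Gal4 female array gives no difference between the sexes. No paired analysis was possible because the titles number the arrays through the series and give no replicate numbers shared by the groups. With 1 array left out, the male comparison called 3016 to 3400 probesets (4827 with all arrays), 1762 to 2053 of them higher and 1253 to 1447 lower. Requiring a log2 change of at least 1 left 513 probesets, 327 higher and 186 lower. The difference between the sexes gave 1606 to 2576 calls without 1 array (2432 with all), 936 to 1374 above and 670 to 1202 below, and 740, 409 and 331 at a log2 difference of at least 1. The change of the HP1 gene ran from −0.53 to −0.21 without 1 array and missed the threshold in 3 of 4 such fits; in all other settings it was called, at −0.48 to −0.35. Of 92 named genes called, 7 lost the call in at least 1 setting (Eip78C, Pur-alpha, RpS19b, the HP1 gene, dup, msl-3 and sa), none of them among the 30 named for size, and no named gene reversed. The share of calls that were higher was 57.2%, and 50.2% with quantile normalization applied once more. Of 27 list medians 15 were below 0, and 13 to 16 over the settings. The ribosomal list gave 13 rises, 23 with limma's trend and 5 after that normalization; with bright probesets alone, where fewer genes are tested, the falls were 9 in place of 23 for testis, 10 in place of 18 for cuticle and 5 in place of 10 for replication. Causes were not tested. The number of arrays limits what small changes can be seen.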

Other observations

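The genes in this paragraph were chosen after their values were seen, and all passed an adjusted p under 0.05 by limma in P/act-Gal4 males against P control males. Lipid genes of the fat body list went both ways. Lsd-1, a coat protein of lipid droplets, read 8.26 on both P/act-Gal4 arrays, against 7.0 and 7.05 in P control males (1.23 on the log2 scale). AkhR, the receptor of the lipid-mobilising adipokinetic hormone, rose by 1.20, Mtp, which loads lipid onto carrier particles, by 1.07, and the fatty acid genes Desat1 and FASN1 by 0.76 and 0.73. In the other direction, Lsd-2, another droplet coat protein, fell by 0.62, Lpin, for a phosphatidate phosphatase, by 0.78, and FASN2 by 0.59. In the ecdysone list shd, for the enzyme that makes the active hormone, read 7.89 and 7.94 in P/act-Gal4 males, against 6.80 on both P control arrays (1.11), and the regulators br and EcR rose by 0.49 and 0.41.

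Immune genes of the antimicrobial list, again chosen after their values were seen, went both ways within gene families. Of the peptidoglycan recognition proteins, PGRP-SC2 read 7.12 and 6.91 in P/act-Gal4 males, against 8.19 and 8.26 in P control males (−1.21), PGRP-LB fell by 0.95, and PGRP-SB2 rose by 1.33. Among peptides, BomS2 fell by 1.02 and Mtk by 0.88, while AttD rose by 0.97. In muscle, the genes of the giant proteins sls and Msp300 rose by 0.55 and 0.54, while the thin filament gene up and the myosin light chain gene Mlc1 fell by 0.50 and 0.32.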
